A study of Mus musculus with 4 samples.

Results

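The 31 genes described here belong to the unfolded protein response and to the ATF4 branch of the integrated stress response. They were taken as a list of gene symbols and followed in single-cell RNA counts of mouse liver. All 31 were found among the 32285 genes of the count tables. The livers came from male offspring, either fetuses at E18.5 or adults at 8 weeks of age, born to control mothers (Ctrl) or to mothers in the intrauterine hyperglycemia model (IHG). The diabetes-like state was thus the mother's, and the labels name no genotype, strain or agent. Each of the 4 groups is 1 library, pooled from 3 pregnant mice or from 3 adult animals, so no group has a replicate. Differences between libraries therefore carry no test, and the intervals given below cover counting error only. They are exact Poisson 95% intervals for levels and ratios and exact Clopper-Pearson 95% intervals for shares of cells. Adult livers were perfused through the portal vein before digestion and fetal livers were not described as perfused, so the ages also differ in how cells were released.

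The unfolded protein response acts when proteins fold poorly in the endoplasmic reticulum (ER). Sensors in the ER membrane then slow protein synthesis and switch on genes for chaperones, disulfide isomerases and the degradation of misfolded proteins. IRE1 (Ern1) splices the Xbp1 messenger, ATF6 (Atf6) is cut to free a transcription factor, and PERK (Eif2ak3) phosphorylates the translation factor eIF2alpha, which favours translation of ATF4. ATF4 and its partner CHOP (Ddit3) drive genes of amino acid supply and of feedback, among them Ppp1r15a, which restores translation. Other kinases sense amino acid shortage or haem shortage and reach ATF4 by the same phosphorylation. Hepatocytes and antibody-secreting plasma cells export much protein and rely on this system. The libraries count the 3′ ends of messengers, so neither Xbp1 splicing, nor ATF6 cleavage, nor phosphorylation was measured.

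Part of this gene set carries the ER stress element in its promoters, the sequence through which ATF6 and XBP1 act. RefSeq promoters (GRCm38.p6, 250 bases before to 50 after the start) were matched for 28 of the 31 genes. Atf6, Hyou1 and Manf had no entry. The element, CCAAT followed by 9 further bases and CCACG, was searched on both strands and found for 8 of the 28 genes. Among all 27025 genes with a promoter window, 37 held it (0.137%). The windows are printed because they show the same pair of boxes, 9 bases apart, in genes of different roles. Capitals mark the boxes, and each run is given on the strand of its gene, 5′ to 3′.
Hspa5, chr2:34772009-34772059, plus strand: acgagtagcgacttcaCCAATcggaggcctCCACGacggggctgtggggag
Calr, chr8:84847059-84847109, minus strand: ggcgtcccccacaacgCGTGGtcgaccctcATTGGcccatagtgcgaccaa
Hsp90b1, chr10:86705622-86705672, minus strand: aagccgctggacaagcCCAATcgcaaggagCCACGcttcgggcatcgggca
Hsp90b1, chr10:86705517-86705567, minus strand: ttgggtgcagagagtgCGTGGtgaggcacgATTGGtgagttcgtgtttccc
Canx, chr11:50325784-50325834, minus strand: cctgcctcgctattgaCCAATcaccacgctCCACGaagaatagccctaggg
Pdia6, chr12:17266475-17266525, plus strand: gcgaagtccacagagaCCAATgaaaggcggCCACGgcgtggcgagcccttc
Dnajc3, chr14:118937811-118937861, plus strand: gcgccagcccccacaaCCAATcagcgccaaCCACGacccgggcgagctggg
Creld2, chr15:88819504-88819554, plus strand: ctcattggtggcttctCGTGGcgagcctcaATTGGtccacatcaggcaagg
Syvn1, chr19:6046516-6046566, plus strand: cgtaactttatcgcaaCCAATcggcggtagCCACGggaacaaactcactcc
The opposite orientation, with the boxes read as CGTGG and ATTGG, was found for Calr, Creld2 and the second match of Hsp90b1. Hsp90b1, the ER form of HSP90, was the gene with matches at 2 places. The element nearest to a start lay 44 to 26 bases before that of Syvn1 and the farthest 212 to 194 bases before that of Hsp90b1. The 8 genes comprise chaperones (Hspa5, Hsp90b1, Dnajc3, Creld2), both lectin chaperones (Calr, Canx), a disulfide isomerase (Pdia6) and a ubiquitin ligase (Syvn1). The UPR element TGACGTGG was found in 0 of the 28 windows (0.714% of all genes) and the C/EBP-ATF composite TGATGCAAT in 0 (0.222%). The variant composite TGATGAAAC was found in 1, in the gene of asparagine synthetase (0.229% of all genes), where capitals mark it.
Asns, chr6:7693208-7693248, minus strand: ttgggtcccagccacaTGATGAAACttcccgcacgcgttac
These are matches of letters in windows of 300 bases and say nothing about binding or about letters outside the windows.

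The files held 5245 to 8739 cell barcodes per library with medians of 2235 to 9116 UMIs (unique molecular identifiers, each counting 1 captured molecule), and 5045 to 7908 cells per library passed the filters. Libraries shared 8 to 26 barcodes in pairs. Cells were clustered within each age without the 31 genes, and each cluster took its "-like" name from fixed markers. A cluster's score for a class was the mean standardised level of its markers. The fetal mast/basophil-like cluster scored 1.88 on its own markers and 1.59 on plasmacytoid dendritic markers. The fetal endothelial-like cluster scored 3.51 on its own and 2.00 on stellate/fibroblast markers. These classes may hold mixed cells, and whether the mix differed between libraries was not tested. Fetal hepatocyte-like cells carried 11.3% (Ctrl) and 16.9% (IHG) of their UMIs on hepatocyte markers. No adult cluster was hepatocyte-like, and these markers made up at most 0.558% of UMIs in an adult class that was compared, the cholangiocyte-like cells, so adult hepatocytes are not described. Haemoglobin genes gave 35.4% of UMIs in the fetal Ctrl library and 20.4% in the fetal IHG library. Fetal macrophage-like cells numbered 6 in Ctrl and 346 in IHG, and were not compared.

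Among the fetal classes compared, the 31 genes took their largest share of messages in endothelial-like cells of the Ctrl library and in myeloid progenitor-like cells of the IHG library, and their smallest in neutrophil-like cells of both. Levels are UMIs per 1000000 UMIs of the class (CPM), summed over the 31 genes. Endothelial-like cells had 3986 CPM in the Ctrl library and 3286 in the IHG library. Myeloid progenitor-like cells had 2751 CPM (Ctrl) and 4418 (IHG). Hepatocyte-like cells had 2467 and 3483 CPM, and erythroid-like cells had 1117 and 1461, in the same order. These totals include haemoglobin, which gave 53.2% (Ctrl) and 36.9% (IHG) of UMIs in erythroid-like and 14.3% and 1.51% in hepatocyte-like cells. That share lowers the CPM of all other genes, more so in the Ctrl library. Levels without haemoglobin were not computed, so the order of these classes and libraries may depend on it. Neutrophil-like cells had 709 and 759 CPM, the lowest sum in both libraries. B-like cells (2363 and 2359 CPM) and monocyte-like cells (2149 and 2234 CPM) lay between and differed little between libraries. Since classes were made by clustering, these levels are descriptions.

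Several genes were highest in the same fetal class in both libraries. Herpud1, a membrane protein of the degradation machinery, was highest in B-like cells, at 409 CPM in Ctrl and 348 in IHG. Syvn1, the ubiquitin ligase HRD1, and Eif2ak3 were also highest there in both libraries. Atf5, a relative of ATF4, stood at 152 and 164 CPM in hepatocyte-like cells. Dnajc3 and Psat1, an enzyme of serine synthesis, were likewise highest in hepatocyte-like cells in both libraries. So was Xbp1, though in Ctrl at 70.1 CPM against 69.0 in monocyte-like cells. Another class led for Xbp1 in Ctrl with coarser clusters and in cells thinned to 1000 UMIs, and in IHG without haemoglobin-rich cells. Ppp1r15a was highest in endothelial-like cells, at 402 and 505 CPM. Asns, which makes asparagine, had 101 CPM in Ctrl and 183 in IHG in erythroid-like cells, and 103 and 115 in hepatocyte-like cells. These classes were close in the Ctrl library, and erythroid-like cells were highest in the IHG library. In cells thinned to 1000 UMIs erythroid-like cells led for Asns in Ctrl and hepatocyte-like cells in IHG. Edem1, which hands misfolded glycoproteins to degradation, and Atf6 were highest in monocyte-like cells in both libraries, where Edem1 had 51.2 and 61.9 CPM. In cells thinned to 1000 UMIs another class led for Edem1 in Ctrl and for Atf6 in IHG.

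Neutrophil-like cells were the low end for 12 of the 31 genes in the Ctrl library, where 8 classes had at least 50 cells, and for 14 in the IHG library, where 10 did. Calr, the calcium-binding chaperone calreticulin, had 18.8 CPM (Ctrl) and 21.3 (IHG) there against 394 and 398 in mast/basophil-like cells. Sdf2l1, a partner of ER chaperones, had 2.55 and 3.94 CPM against 83.7 and 56.4. Erythroid-like cells were lowest for 11 genes in each library, on CPM whose totals include their large share of haemoglobin. Dnajb9 (ERdj4), a co-chaperone of BiP (Hspa5), had 9.59 and 9.22 CPM in erythroid-like cells and 44.6 and 32.3 in neutrophil-like cells. With every cell thinned to 1000 UMIs, neutrophil-like cells were lowest for 7 (Ctrl) and 9 (IHG) genes.

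**Figure D1:**
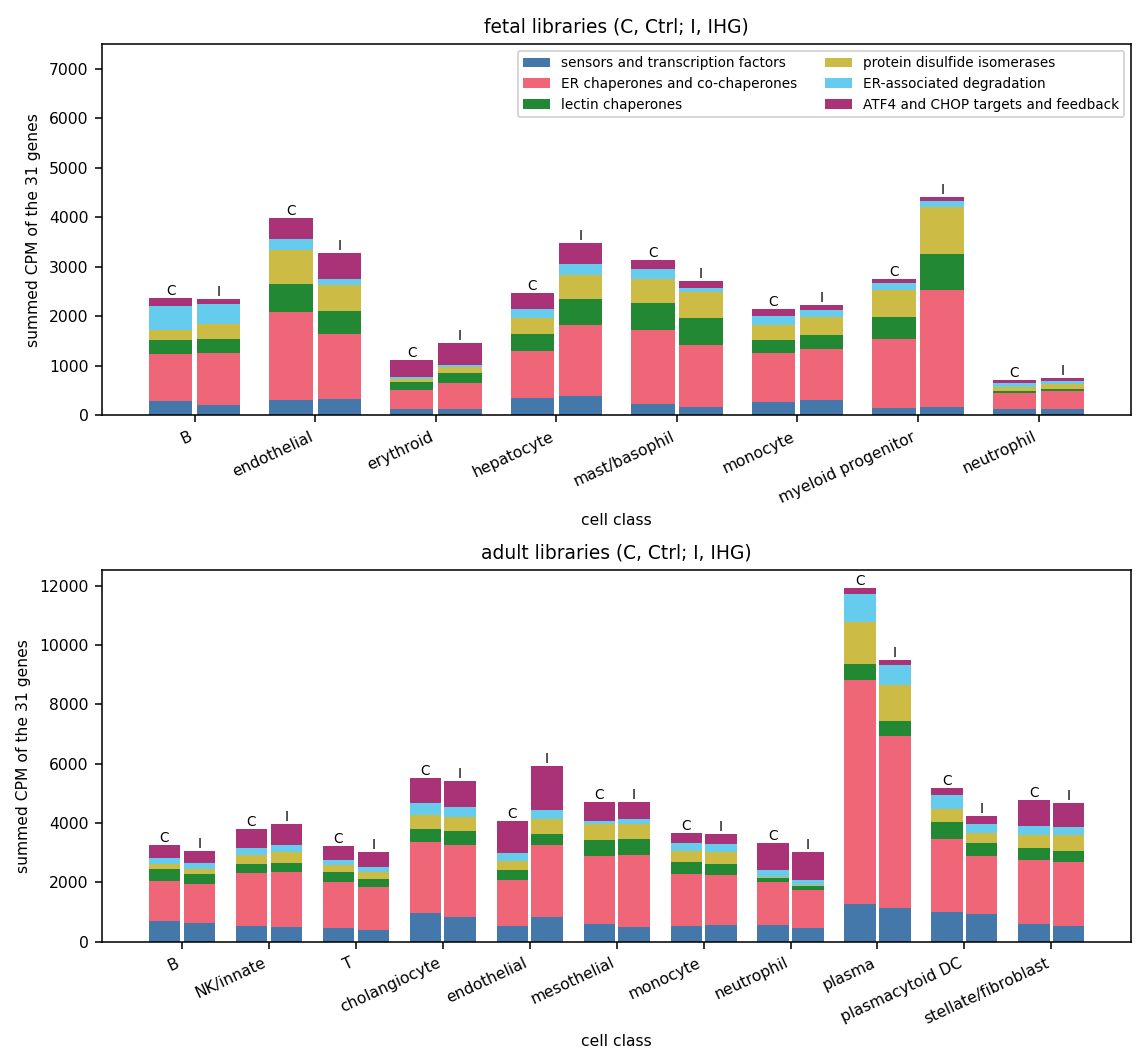
Summed CPM of the 31 genes (vertical axis) in each cell class (horizontal axis) of the fetal (top) and adult (bottom) libraries, stacked by role, for classes with at least 20 cells in both libraries; C is Ctrl and I is IHG, 1 library each, with no error bar because there are no replicates. Adult plasma-like cells reach 11936 CPM in Ctrl and 9513 in IHG, and fetal neutrophil-like cells stay at 709 and 759. CPM totals include haemoglobin, which gave 53.2% (Ctrl) and 36.9% (IHG) of UMIs in fetal erythroid-like cells.

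Among adult cells the secretory end of the scale was held by plasma-like cells, of which there were 28 in Ctrl and 20 in IHG. Plasma-like cells were named from Jchain, Mzb1, Tnfrsf17 and other markers that include none of the 31 genes but do include Derl3 and Fkbp11, which act in the ER. Their summed level was 11936 CPM (Ctrl) and 9513 (IHG), against 3268 and 3046 in B-like cells of the same libraries. Of 9 classes in Ctrl and 8 in IHG, plasma-like cells were highest for 20 and 17 of the 31 genes. Their median depth was 13614.5 (Ctrl) and 18592 UMIs (IHG), against 2219 and 2007 in B-like cells. With every cell thinned to 1000 UMIs they were highest for 16 and 14 genes. Among the classes with at least 50 cells in both libraries, cholangiocyte-like cells had the most, 5526 and 5432 CPM. Endothelial-like cells had 4051 and 5906 CPM from only 38 and 23 cells. The low end was T-like cells in Ctrl (3216 CPM) and neutrophil-like cells in IHG (3020 CPM).

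Plasma-like and B-like cells of the same library come from the same pool of animals, dissociation and capture, so this comparison was read within each library. For ratios, here and below, 0.5 was added to each count, and the log2 ratio was centred on the median of all measured genes (at least 20 UMIs over the groups compared). A gene was called when it differed at least 1.5-fold and its interval left out 0. Of 27 measured genes, 20 were higher in plasma-like cells in both libraries and 1 was lower. Among all 8060 genes measured, 15% were higher in both and 11.4% lower. Without centring, which moves all genes by -0.53 (Ctrl) and -0.50 (IHG), 15 were higher and 2 lower. Cells were clustered on other genes, and the contrast remains one between clusters, so it carries no test.

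The chaperones and isomerases gave the largest of these differences. Sdf2l1 had 7.96 CPM in B-like and 390 in plasma-like cells in Ctrl, and 7.95 and 402 in IHG. Its log2 differences were 6.13 (5.60 to 6.73) and 6.16 (5.72 to 6.63). Creld2, an ER protein with isomerase activity, differed by 5.33 and 4.95. Manf, a secreted ER stress protein, went from 83.1 to 1594 CPM in Ctrl and from 78.7 to 1209 in IHG. Pdia4, a disulfide isomerase, went from 35.6 to 653 and from 33.9 to 483 CPM. Hsp90b1 went from 270 to 3440 and from 271 to 2465. Xbp1, the transcription factor that plasma cells require, went from 44.5 to 716 CPM in Ctrl and from 37.7 to 664 in IHG, log2 differences of 4.54 and 4.64. Hspa5 (BiP), the main ER chaperone, differed far less, by 1.17 (1.01 to 1.33) and 1.00 (0.83 to 1.16), from a B-like level of 650 and 616 CPM.

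Atf4, Ddit3, Eif2ak3 and Dnajb9 were not called in plasma-like against B-like cells, while Psat1, a target of ATF4, was called higher at 2.36 and 2.05, from 7 and 5 UMIs in plasma-like cells. Atf4 had 332 CPM in B-like and 279 in plasma-like cells in Ctrl, and 306 and 213 in IHG, log2 differences of 0.29 (-0.02 to 0.57) and -0.01 (-0.36 to 0.31). Ddit3, the CHOP gene, differed by -0.14 (-0.78 to 0.39) and -0.03 (-0.72 to 0.52). Eif2ak3 differed by -0.36 and -0.53 and Dnajb9 by -0.21 and -0.06, all with intervals that hold 0. Ppp1r15a was the gene called lower, at 423 CPM in B-like and 86.7 in plasma-like cells in Ctrl and 390 and 108 in IHG. Its log2 differences were -1.73 (-2.30 to -1.25) and -1.33 (-1.84 to -0.90). The immediate-early genes that dissociation is known to induce were not compared between these classes, and their part was not tested. Asns had 0 UMIs in B-like cells of both libraries, which allows up to 0.702 CPM in Ctrl and 0.419 in IHG (3 counts), and 18 and 12 UMIs in plasma-like cells. Chac1, another ATF4 target, had 2 and 1 UMIs in B-like and 17 and 12 in plasma-like cells. Asns, Chac1, Atf5 and Trib3 had too few UMIs to be measured in both libraries.

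**Figure D2:**
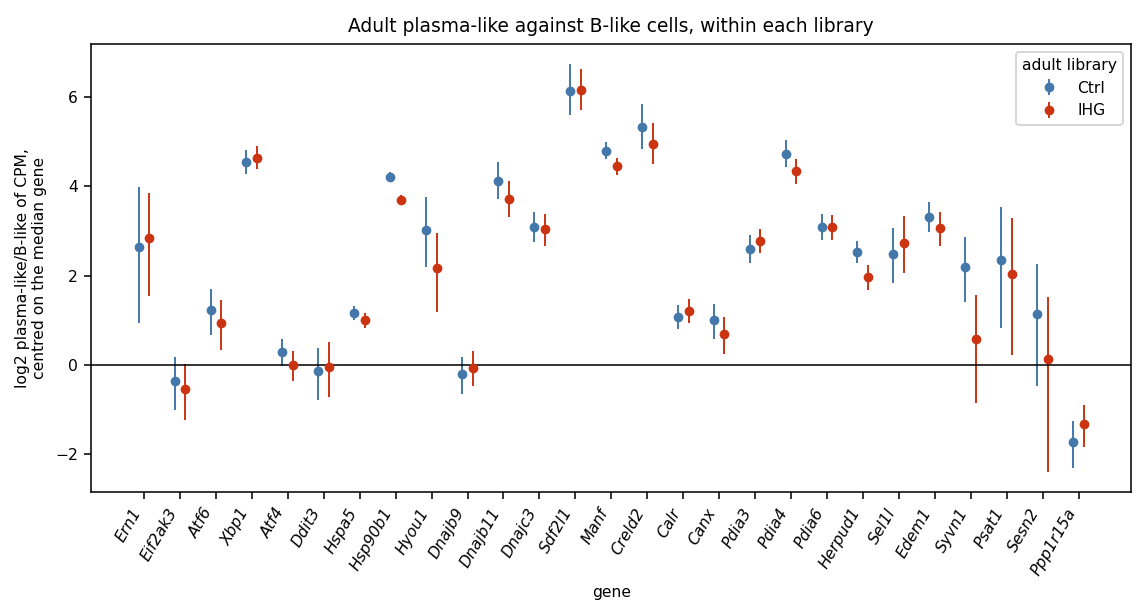
Log2 ratio of plasma-like to B-like CPM (vertical axis) for the 27 measured genes (horizontal axis) in the adult Ctrl and IHG libraries, centred on the median gene, with bars for the Poisson 95% interval (counting error only). Sdf2l1 lies highest, at 6.13 and 6.16, and Ppp1r15a lowest, at -1.73 and -1.33.

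The main contrast is IHG against Ctrl in the fetal liver, and there Ppp1r15a and Herpud1 were called lower in the IHG library in 6 of 8 classes and Ddit3 and Dnajb9 in 5. On CPM alone, before the centring described above, these counts were 5 for Ppp1r15a, 4 for Herpud1, 4 for Ddit3 and 3 for Dnajb9. All 8 classes come from the same Ctrl and IHG library, so counts over classes, here and below, are not independent repeats. How many of all genes were called, or lay below 0, in as many classes was not computed. The abundant chaperones and isomerases were called lower in few classes besides the endothelial-like cells. In 8 fetal classes with at least 50 cells in each library, 221 gene and class pairs were measured. Of these, 46 were called lower in IHG and 8 higher. The centring matters: class medians of all genes lay 0.17 to 0.70 log2 above 0 before it, most in erythroid-like cells. On CPM alone 25 pairs were lower and 36 higher, and all of those 25 were among the 46. The 8 pairs called higher were called higher on CPM alone as well. Ddit3, Ppp1r15a, Herpud1, Dnajb9 and Syvn1 hold 19 of the 25 pairs that were lower under both scalings.

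The count has to be read against all genes of each class. In fetal B-like cells 6 of 30 measured genes were lower (9% of all genes) and 1 was higher (6.09%). In mast/basophil-like cells 9 of 27 were lower (11.7%) and 0 higher (8.19%). Endothelial-like cells had 8 of 23 lower (9.08%) and 1 higher (7.59%). Monocyte-like cells had 5 of 29 lower (7.46%) and 1 higher (5.2%), and neutrophil-like cells also had 5 of 29 lower (9%) and 1 higher (4.41%). Erythroid-like cells had 9 of 31 lower (12.8%) and 0 higher (15.4%). Hepatocyte-like cells had 3 of 24 lower (10.1%) and 2 higher (7.51%), close to the shares among all genes. Myeloid progenitor-like cells had 1 of 28 lower (6.8%) and 2 higher (5.6%), also close.

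On CPM alone the split changed in most classes. The counts lower and higher became 5 and 2 in B-like, 3 and 2 in endothelial-like, 1 and 11 in erythroid-like, 2 and 7 in hepatocyte-like, 6 and 1 in mast/basophil-like, 0 and 10 in myeloid progenitor-like and 3 and 2 in neutrophil-like cells. Monocyte-like cells kept 5 and 1. The median centred log2 ratio of the measured genes ranged from -0.59 in endothelial-like cells to 0.20 in hepatocyte-like cells, where the median of all genes is 0 by construction.

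**Figure D3:**
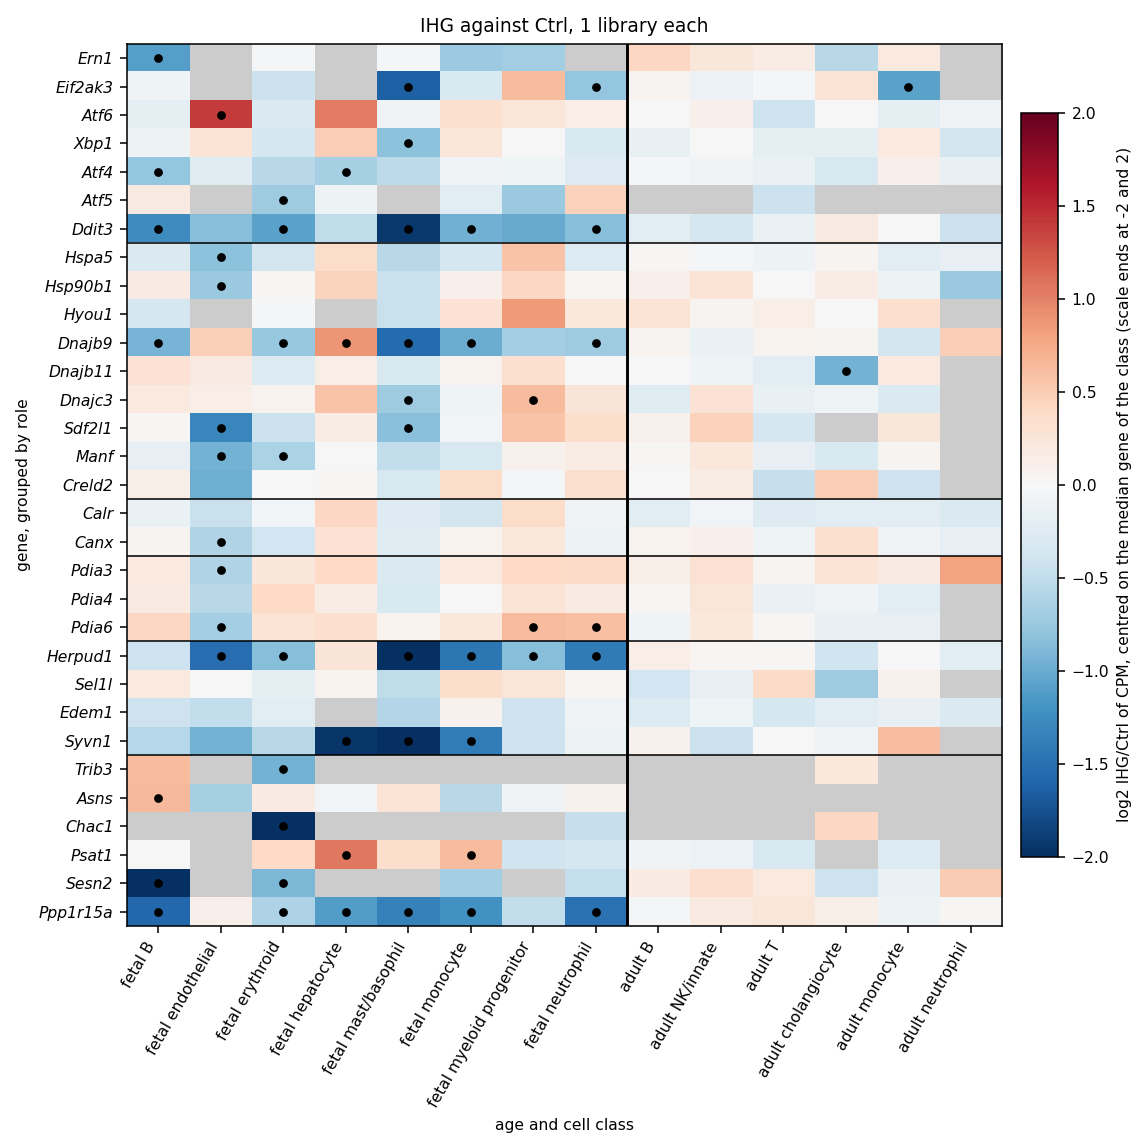
Log2 ratio of IHG to Ctrl CPM, centred on the median gene of the class (colour), for the 31 genes (rows, grouped by role) in 8 fetal and 6 adult classes (columns), 1 library per group; black dots mark called pairs and grey cells were not measured. The fetal columns hold 46 lower and 8 higher calls, with Herpud1 and Ppp1r15a lower in 6 columns each, and the adult columns hold 2.

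Of the sensors and transcription factors, 12 of 49 fetal pairs were lower and 1 higher, and 6 and 3 on CPM alone. Per class, 6.8% to 12.8% of all genes were lower and 4.41% to 15.4% higher, and the counts by role below are read beside these shares. Ddit3 encodes CHOP, the factor linked to death of stressed cells, and its centred ratio was below 0 in 8 of 8 fetal classes. In B-like cells it had 63.0 CPM in Ctrl and 29.7 in IHG, a log2 ratio of -1.26 (-1.48 to -1.04). In mast/basophil-like cells it had 38.3 and 12.2 CPM, a ratio of -1.92 (-2.57 to -1.24). In both classes the IHG library was the low one by more than 2-fold. Monocyte-like cells had 26.4 and 15.5 CPM (-0.96) and neutrophil-like cells 14.2 and 9.35 (-0.86). These 4 classes were called lower under both scalings, and the neutrophil-like call was lost in cells thinned to 1000 UMIs (-0.65). Erythroid-like cells had 33.5 and 25.9 CPM, called lower at -1.07 after centring and -0.37 before it. Hepatocyte-like cells (31.6 and 26.0 CPM), endothelial-like cells (40.7 and 26.5) and myeloid progenitor-like cells (9.75 and 6.38) were not called. Ddit3 lies at chr10:127290774-127296288 (mm10, plus strand), overlaps Mars on the other strand, and is listed under 2 gene IDs of which 1 held all its UMIs.

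The centred ratio of Atf4 was below 0 in 8 of 8 classes and called lower in B-like cells, where it had 139 CPM in Ctrl and 91.5 in IHG (-0.78, -0.91 to -0.65), and in hepatocyte-like cells, at 79.5 and 58.6 CPM (-0.66, -1.16 to -0.15). Ddit3 stood at -0.50 in the latter class. The hepatocyte-like call of Atf4 was lost on CPM alone (-0.44) and without the 1 cell per library with the most UMIs of these genes (-0.53). In monocyte-like cells it had 129 and 140 CPM and in neutrophil-like cells 79.7 and 79.2. ATF4 is controlled at translation, which these counts do not show.

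The membrane sensors were scarce and moved in single classes. Eif2ak3 had 11.6 CPM in Ctrl and 4.61 in IHG in mast/basophil-like cells (-1.63, -2.76 to -0.34), from 10 and 20 UMIs, and 5.10 and 3.57 CPM in neutrophil-like cells (-0.77, and -0.52 on CPM alone, where the call was lost). Ern1 was called lower in B-like cells, from 31 and 9 UMIs (-1.10, -2.41 to -0.05), and not on CPM alone (-0.92). Atf6 went the other way in endothelial-like cells, with 5 and 54 UMIs or 11.3 and 37.7 CPM (1.40, 0.21 to 3.20). Xbp1 was called lower in mast/basophil-like cells, at 58.1 and 39.6 CPM (-0.83), and not on CPM alone (-0.56). In hepatocyte-like cells Xbp1 had 70.1 CPM in Ctrl and 115 in IHG (0.49, 0.05 to 0.96), under the fold required. Atf5, measured in 6 classes, was called lower in erythroid-like cells at 1.60 and 1.59 CPM, a call that centring alone makes (-0.71, and -0.01 on CPM alone).

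The ER chaperones and co-chaperones gave 12 lower and 2 higher of 70 pairs, and 5 lower and 14 higher on CPM alone, so the group's direction turns with the scaling. Dnajb9 supplied 5 of the 12. Dnajb9 had 51.1 CPM in Ctrl and 30.3 in IHG in B-like cells (-0.92, -1.15 to -0.70). In mast/basophil-like cells it had 48.8 and 20.3 CPM (-1.54, -2.08 to -0.97), and in monocyte-like cells 29.6 and 17.0 (-0.99, -1.52 to -0.45). Hepatocyte-like cells went the other way, with 19.9 CPM in Ctrl and 43.5 in IHG (0.89, 0.10 to 1.80), from 17 and 52 UMIs. That call was lost with a mitochondrial maximum of 10% (0.46), with doublets kept (0.48) and without haemoglobin-rich cells (0.85). Neutrophil-like cells (44.6 and 32.3 CPM) and erythroid-like cells (9.59 and 9.22 CPM) were called lower after centring, at -0.72 and -0.76, and not on CPM alone.

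Hspa5, the chaperone that holds the sensors inactive, was below 0 in 6 of 8 classes and called lower in 1. It had 261 CPM in Ctrl and 241 in IHG in B-like cells (-0.29), 305 and 272 in monocyte-like cells (-0.36) and 98.1 and 97.1 in neutrophil-like cells (-0.27), none of them called. Mast/basophil-like cells had 406 and 333 CPM (-0.55, -0.72 to -0.38) and erythroid-like cells 174 and 219 (-0.37), also not called. In hepatocyte-like cells it had 313 and 469 CPM (0.36, 0.15 to 0.58), and in myeloid progenitor-like cells 289 and 550 (0.57, 0.41 to 0.74). Both lay under 1.5-fold after centring. Endothelial-like cells had 637 CPM in Ctrl and 421 in IHG and were called lower (-0.82, -1.02 to -0.61).

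In endothelial-like cells most of the lower calls were folding genes. Hspa5, Hsp90b1, Sdf2l1, Manf, Canx, Pdia3 and Pdia6 were all called, at -0.59 to -1.31, together with Herpud1. Manf had 267 CPM in Ctrl and 162 in IHG (-0.94, -1.26 to -0.60). Hsp90b1 had 644 and 448 CPM (-0.74). Hspa5, Manf and Herpud1 were the 3 also called on CPM alone. The Ctrl side rests on 63 cells, and in cells thinned to 1000 UMIs Manf stood at 0.21, Pdia3 at 0.03 and Pdia6 at 0.76. Manf overlaps Rbm15b on the same strand, so reads of the pair may not be separable.

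Myeloid progenitor-like cells had more of the folding genes in the IHG library. Dnajc3 (p58IPK), a co-chaperone that also inhibits PERK, had 68.2 CPM in Ctrl and 137 in IHG (0.64, 0.31 to 1.00). Pdia6 had 235 and 469 CPM (0.64, 0.46 to 0.83). Hsp90b1 had 550 and 939 CPM (0.41), and Sdf2l1 77.1 and 148 (0.57), both under the fold required. The whole class lay 0.36 log2 higher in IHG before centring, and on CPM alone 10 of its genes were higher. In cells thinned to 1000 UMIs Pdia6 stood at -0.04 and Dnajc3 at 0.28.

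Lectin chaperones and disulfide isomerases, which fold glycoproteins and form disulfide bonds, gave few calls. Of 16 lectin pairs 1 was lower, Canx in endothelial-like cells (244 and 189 CPM, -0.59). Calr was called in none of the 8 classes and ranged from -0.45 to 0.41. Of 24 isomerase pairs 2 were lower and 2 higher, and on CPM alone 0 lower and 10 higher. Pdia6, which acts on IRE1 and PERK, was above 0 in 7 of 8 classes. Besides the myeloid progenitor-like cells it was called higher in neutrophil-like cells, with 13.7 CPM in Ctrl and 24.96 in IHG (0.61, 0.31 to 0.92). In B-like cells it had 93.5 and 141 CPM (0.41, 0.29 to 0.54). The exception was the endothelial-like class, at -0.68.

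Of the genes for ER-associated degradation, 9 of 31 pairs were lower and 0 higher, and 7 and 0 on CPM alone, beside the same 6.8% to 12.8% of all genes. All 9 were Herpud1 or Syvn1, and Sel1l and Edem1 had no call. Herpud1, which links the ubiquitin ligase to its substrates, had 157 CPM in Ctrl and 47.5 in IHG in mast/basophil-like cells (-1.99, -2.31 to -1.67). Monocyte-like cells had 104 and 43.5 CPM (-1.45, -1.75 to -1.15), neutrophil-like cells 40.0 and 17.9 (-1.41, -1.63 to -1.18) and endothelial-like cells 133 and 53.8 (-1.53, -2.04 to -1.01). In these 4 classes the IHG library was the low one by more than 2-fold. Myeloid progenitor-like cells had 86.8 and 62.1 CPM and erythroid-like cells 35.2 and 31.6, both called lower after centring only. B-like cells, where Herpud1 is highest, had 409 and 348 CPM and were not called (-0.41, -0.48 to -0.34). Hepatocyte-like cells had 136 and 188 CPM (0.25, -0.07 to 0.59).

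Syvn1 was lower in 3 classes and below 0 in all 8. It had 22.1 CPM in Ctrl and 6.68 in IHG in mast/basophil-like cells (-2.002, -2.87 to -1.07). Monocyte-like cells had 12.9 and 5.58 CPM, or 24 and 23 UMIs (-1.40), and lost the call with doublets kept (-0.79). Hepatocyte-like cells had 15 and 6 UMIs (-1.95, -3.67 to -0.57). Sel1l, the partner that Syvn1 needs, ranged from -0.52 to 0.35, above 0 in 5 of 8 classes, and was called in 0. Edem1 was called in 0 of 7.

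Among targets of ATF4 and CHOP, the feedback gene Ppp1r15a was called lower in 6 classes, and the amino acid genes Psat1 and Asns were called higher in 2 classes and 1. The group had 10 lower and 3 higher of 31 pairs, and 7 lower and 6 higher on CPM alone. Ppp1r15a (GADD34), the phosphatase subunit that ends the translation block, held 6 of the 10. It had 96.9 CPM in Ctrl and 36.9 in IHG in B-like cells (-1.56, -1.76 to -1.37), and 128 and 60.1 in mast/basophil-like cells (-1.36, -1.68 to -1.02). Monocyte-like cells had 98.1 and 48.3 CPM (-1.21), neutrophil-like cells 22.1 and 9.35 (-1.49) and hepatocyte-like cells 97.0 and 51.9 (-1.12). The IHG library was low in all 5 under both scalings. In erythroid-like cells it had 219 and 231 CPM, called lower at -0.62 after centring and at 0.08 on CPM alone, so its direction turns there, and within single erythroid-like clusters it was not lower either. Endothelial-like cells had 402 and 505 CPM (0.11) and myeloid progenitor-like cells 19.5 and 18.1 (-0.49).

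Some of the Ppp1r15a calls were lost under other settings, and the cause was not tested. Thinning every cell to 1000 UMIs left -0.48 in monocyte-like and -0.27 in neutrophil-like cells, neither called. With doublets kept and cells clustered again, Ppp1r15a stood at -0.44 in neutrophil-like and -0.51 in hepatocyte-like cells, and without haemoglobin-rich cells at -0.18 in hepatocyte-like cells. The B-like call held under each of the 11 alternatives, from -1.22 to -1.60. The mast/basophil-like call held under the 10 that gave it a value, from -0.90 to -1.41, and it was not measured in thinned cells.

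Psat1 had 109 CPM in Ctrl and 262 in IHG in hepatocyte-like cells (1.05, 0.71 to 1.40) and 21.5 and 38.4 in monocyte-like cells (0.63, 0.13 to 1.18), both called higher. With doublets kept the calls were lost, at 0.33 and 0.53. Within single clusters Psat1 was called lower in B-like cluster 4 (22.3 and 10.9 CPM, -1.02) and in erythroid-like cluster 11 (16.8 and 9.84 CPM, -0.83). Asns was called higher in B-like cells, with 7.07 and 12.5 CPM (0.65, 0.21 to 1.08), and not with doublets kept (0.42), at the coarser clustering (0.37) or in thinned cells (0.67). In erythroid-like cells Asns had 101 and 183 CPM (0.16, 0.11 to 0.21), where the class as a whole had moved by 0.70. Chac1, which degrades glutathione, had 110 and 50 UMIs in erythroid-like cells (-2.02, -2.54 to -1.54) and was lower there under both scalings. Trib3, an inhibitor of the ATF4 and CHOP pair, had 102 and 98 UMIs in that class (-0.95, and -0.25 on CPM alone). Sesn2, a stress-induced regulator of mTORC1, had 19 UMIs in Ctrl and 1 in IHG in B-like cells (-3.07, -8.99 to -0.96).

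**Figure D4:**
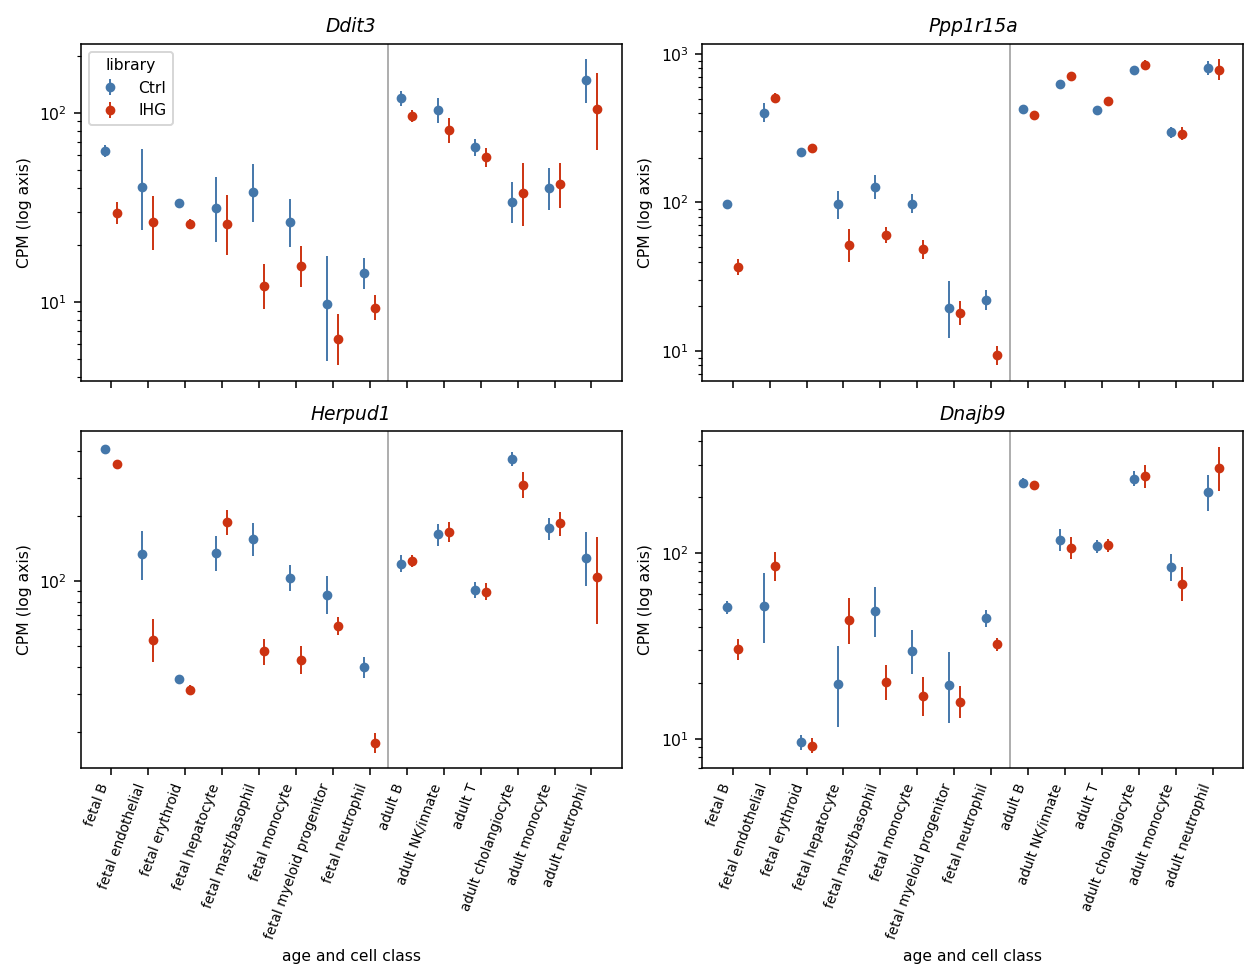
CPM on a log axis (vertical) of Ddit3, Ppp1r15a, Herpud1 and Dnajb9 in 8 fetal and 6 adult cell classes (horizontal, divided by a grey line), 1 point per library with its Poisson 95% interval, blue for Ctrl and red for IHG. In fetal B-like cells Ddit3 goes from 63.0 to 29.7 CPM and Ppp1r15a from 96.9 to 36.9, and in the adult classes the points of the libraries lie close together.

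The share of cells with a UMI describes each library by cells instead of by summed counts. With B-like cells thinned to 1000 UMIs, Ppp1r15a was seen in 11.3% of 2236 Ctrl cells (10.0 to 12.7, exact Clopper-Pearson) and in 5.35% of 990 IHG cells (4.04 to 6.94). Unthinned, the shares were 31.1% and 19.8%. Ddit3 was seen in 8.90% (7.75 to 10.2) and 4.55% (3.33 to 6.04) of the same thinned cells, and unthinned in 24.3% of Ctrl cells and 185 of the 1000 IHG cells. In thinned neutrophil-like cells, which have a median of 7040 and 7861 UMIs before thinning, Herpud1 was seen in 4.08% (2.93 to 5.52) of Ctrl and 1.98% (1.43 to 2.66) of IHG cells. Ppp1r15a was at 1.33% (0.708 to 2.26) and 1.46% (0.994 to 2.07) there. These intervals cover the sampling of cells within 1 library each and are no test of the conditions. No class is known to lack these genes, so the share that free RNA gives was not measured, and haemoglobin, a measure of free RNA, differed between the libraries.

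Other changes moved with these calls, and their part in them was not tested. A list of 15 immediate-early genes, which tissue dissociation is known to induce, was added after values had been seen. It was lower in IHG for 14 of 15 measured genes in B-like, 12 of 14 in mast/basophil-like, 10 of 14 in myeloid progenitor-like, 8 of 15 in monocyte-like and 6 of 15 in neutrophil-like cells. Its summed level in B-like cells was 4963 CPM in Ctrl and 3010 in IHG, and in mast/basophil-like cells 6055 and 3338. It was lower for 2 genes in endothelial-like and 3 in hepatocyte-like cells, and in erythroid-like cells for 1, with 3 higher. Cytosolic heat shock genes, a list of 10, were lower for 0 to 3 per class. Haemoglobin, which spreads as free RNA between droplets, was lower in IHG in all 8 classes, for example 6.62% against 1.61% of UMIs in B-like, 9.43% against 0.883% in mast/basophil-like and 14.3% against 1.51% in hepatocyte-like cells. Median depth was higher in IHG in all 8, at 4034 against 3406 UMIs in B-like and 17128 against 6842 in mast/basophil-like cells.

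Cluster makeup also differed in the B-like, neutrophil-like and erythroid-like cells, the compared fetal classes with more than 1 cluster. The other compared fetal classes were 1 cluster each, so makeup could not be read there. The largest cluster of Ctrl B-like cells was 5 (818 cells, against 197 IHG cells), and that of IHG B-like cells was 8 (396, against 483 Ctrl cells). Within single clusters the calls persisted for several genes, with exceptions given below. Ddit3, Dnajb9 and Ppp1r15a were lower in all 4 B-like clusters, in which 6.79% to 9.31% of all genes were lower. Ppp1r15a went from 171 to 58.9 CPM in cluster 8, from 163 to 72.2 in cluster 4, from 58.7 to 18.8 in cluster 5 and from 81.4 to 13.9 in cluster 15. Atf4 was lower in 3 of the 4. In neutrophil-like cells the largest cluster was 2 for Ctrl (375 cells) and 6 for IHG (757). Herpud1 was lower in all 3 clusters, at -1.93 in cluster 2, -0.99 in cluster 6 and -1.29 in cluster 7. Ddit3 and Ppp1r15a were lower in clusters 2 and 6 and not in 7. Of all genes, 8.84%, 6.73% and 7.67% were lower in clusters 2, 6 and 7. Syvn1, below 0 in the class, was called higher in cluster 6, where 3.89% of all genes were higher.

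In erythroid-like cells the class and its clusters gave different answers for Ppp1r15a. The largest cluster of Ctrl cells was 1 (747 cells) and that of IHG cells was 10 (526, against 153 Ctrl cells). The name of cluster 10 is weak, with scores of 0.26 on erythroid and 0.15 on stem/progenitor markers. The other erythroid-like clusters scored 1.18 to 1.51 on erythroid markers. Cluster 10 had the highest summed level of the 7 erythroid-like clusters, 2328 CPM in Ctrl and 2080 in IHG. Within it 7 of 31 genes were lower (4.38% of all genes lower, 6.73% higher): Ddit3, Dnajb9, Sdf2l1, Manf, Herpud1, Trib3 and Chac1. Ddit3 had 59.8 CPM in Ctrl and 30.98 in IHG there (-1.07) and was also lower in clusters 0, 3 and 11. Ppp1r15a had 74.6 and 84.0 CPM in cluster 10 (0.05, -0.12 to 0.22), the lowest level among these clusters. In the 7 clusters its ratio lay between 0.05 and 0.43, above 0 in each, while the class as a whole stood at -0.62. It was called in none of them. Dnajb9, lower in the class, was called higher in cluster 0, where 7.57% of all genes were higher. It was lower in clusters 10 and 17, where 4.38% and 5.08% of all genes were lower.

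Genes of the same pathways that are not among the 31 moved in both directions. Per fetal class, 6.8% to 12.8% of all genes were lower and 4.41% to 15.4% higher, and the counts here are read beside these shares. Of 16 other sensors, kinases and feedback genes, 0 to 3 were lower and 0 to 2 higher per fetal class. Atf3, a partner of CHOP that is also an immediate-early gene, was lower in B-like cells (22.2 and 5.63 CPM, -2.14), mast/basophil-like cells (232 and 85.7, -1.71) and monocyte-like cells (748 and 363, -1.23). Of 55 other genes for ER folding, translocation and degradation, 10 of 52 measured were lower in mast/basophil-like cells (11.7% of all genes). In endothelial-like cells 5 of 50 were lower, close to the share of all genes (9.08%). The other classes had 0 to 3 lower, and 0 to 5 were higher per class. Sec61g of this list was lower in every fetal class but the myeloid progenitor-like, for example in mast/basophil-like cells (1048 and 576 CPM, -1.13). Fkbp11, a prolyl isomerase of the ER, was higher in erythroid-like cells (5.91 and 55.0 CPM, 2.52) and mast/basophil-like cells (13.9 and 31.8, 0.87). Fkbp11 was a leading gene of erythroid-like cluster 10, which held 526 IHG and 153 Ctrl cells. The part of cluster makeup in its class ratio was not tested. Of 44 other ATF4 targets, 0 to 6 were higher and 2 to 6 lower per class. Phgdh, the enzyme that starts the serine pathway of Psat1, was higher in B-like cells (116 and 207 CPM, 0.66) and monocyte-like cells (25.3 and 71.6, 1.30). Eprs, a tRNA synthetase, was higher in B-like (63.7 and 129 CPM, 0.84) and mast/basophil-like cells (84.8 and 216, 1.08). Ddit4, an mTORC1 inhibitor, was lower in B-like (38.5 and 19.0 CPM, -1.19) and mast/basophil-like cells (51.1 and 14.97, -2.04).

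In 7 of 8 fetal classes the genes with an ER stress element had the higher median ratio. In mast/basophil-like cells the 8 genes with the element had a median ratio of -0.38 and the 16 measured genes without it -0.56. In neutrophil-like cells the medians were -0.02 and -0.29, in erythroid-like cells -0.03 and -0.43, and in myeloid progenitor-like cells 0.39 and -0.09. Endothelial-like cells had them the other way round, at -0.71 and -0.49. The only gene with the element that was lower in more than 1 class was Syvn1. In adult cells the order went both ways. The medians were 0.12 and -0.04 in NK/innate lymphoid-like, -0.09 and -0.13 in T-like and -0.004 and -0.13 in cholangiocyte-like cells. Genes with the element had the lower median in B-like (0.007 and 0.016), monocyte-like (-0.19 and 0.005) and neutrophil-like cells (-0.23 and -0.15). The genes without it include Ddit3, Ppp1r15a, Herpud1 and Dnajb9. All fetal classes share the same Ctrl and IHG library. These are medians of few genes, given as a description.

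In the adult liver the 31 genes hardly differed between IHG and Ctrl. Of 150 measured pairs in 6 classes, 2 were lower and 0 higher, and on CPM alone 1 and 0. Dnajb11 (ERdj3), a co-chaperone of BiP, had 51.0 CPM in Ctrl and 26.0 in IHG in cholangiocyte-like cells (-0.94, -1.74 to -0.26), 1 of 27 measured genes (2.08% of all genes lower, 2.33% higher). Eif2ak3 had 17.2 and 8.37 CPM in monocyte-like cells, from 28 and 11 UMIs (-1.07, -2.26 to -0.06), 1 of 27 (4.28% lower, 4.33% higher). That call was lost on CPM alone (-0.997) and with doublets kept (-0.64). The remaining classes had 0 calls: B-like (1.89% of all genes lower, 1.84% higher), T-like (2.15% and 2.25%), NK/innate lymphoid-like (2.37% and 1.85%) and neutrophil-like cells (7.44% and 4.37%).

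Well-counted genes bound the adult differences closely. In B-like cells Ppp1r15a had 423 CPM in Ctrl and 390 in IHG (-0.02, -0.11 to 0.06), Atf4 332 and 306 (-0.02, -0.12 to 0.08) and Hspa5 650 and 616 (0.02, -0.05 to 0.09). Ddit3 had 119 and 96.0 CPM (-0.22, -0.38 to -0.05). In monocyte-like cells Herpud1 had 176 and 186 CPM (0.01, -0.25 to 0.26). Neutrophil-like cells had only 14 of the 31 genes measured, and Ppp1r15a had 802 and 784 CPM there (0.02, -0.27 to 0.31).

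Set side by side, the adult libraries had more Ppp1r15a, Ddit3, Dnajb9, Sesn2, Atf4 and Hspa5 than the fetal ones in 3 cell classes. B-like, monocyte-like and neutrophil-like cells were named at both ages, and values were scaled to a common median gene. Perfusion, depth and makeup differ with age and cannot be told apart from it. In monocyte-like cells 22 of 29 measured genes had both adult values above both fetal values (32.5% of all genes) and 2, Asns and Psat1, had both below (37.2%). In B-like cells 16 of 30 were above (38.8%) and 12 below (45.5%), and in neutrophil-like cells 14 of 30 above (22.5%) and 11 below (50.8%). Ppp1r15a had scaled values of 95.2 and 32.7 in fetal B-like cells (Ctrl, then IHG) and of 430 and 429 in adult ones. In neutrophil-like cells it had 31.6 and 11.7 against 562 and 564. The fetal IHG library was thus the lowest of the 4 in both classes.

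Hspa5 had scaled values of 289 and 226 in fetal against 1149 and 992 in adult monocyte-like cells, and both adult values were above both fetal ones in all 3 classes. Hyou1 and Calr, both chaperones, also had both adult values above both fetal ones in all 3 classes, and in monocyte-like cells so did Sdf2l1, Manf, Creld2, Canx, Pdia3, Pdia4, Pdia6 and Herpud1. In B-like and neutrophil-like cells several genes had the opposite order. Herpud1 had 402 and 308 in fetal and 123 and 137 in adult B-like cells. Sdf2l1 had 48.7 and 50.6 against 8.08 and 8.76 in the same class, and Psat1 53.5 and 54.0 against 5.71 and 5.53. Hsp90b1 had 150 and 160 in fetal against 46.6 and 26.3 in adult neutrophil-like cells. Immediate-early genes were also higher in adult cells, with a summed 11693 and 13598 CPM in adult B-like cells against 4963 and 3010 in fetal ones, and their part was not tested.

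**Figure D5:**
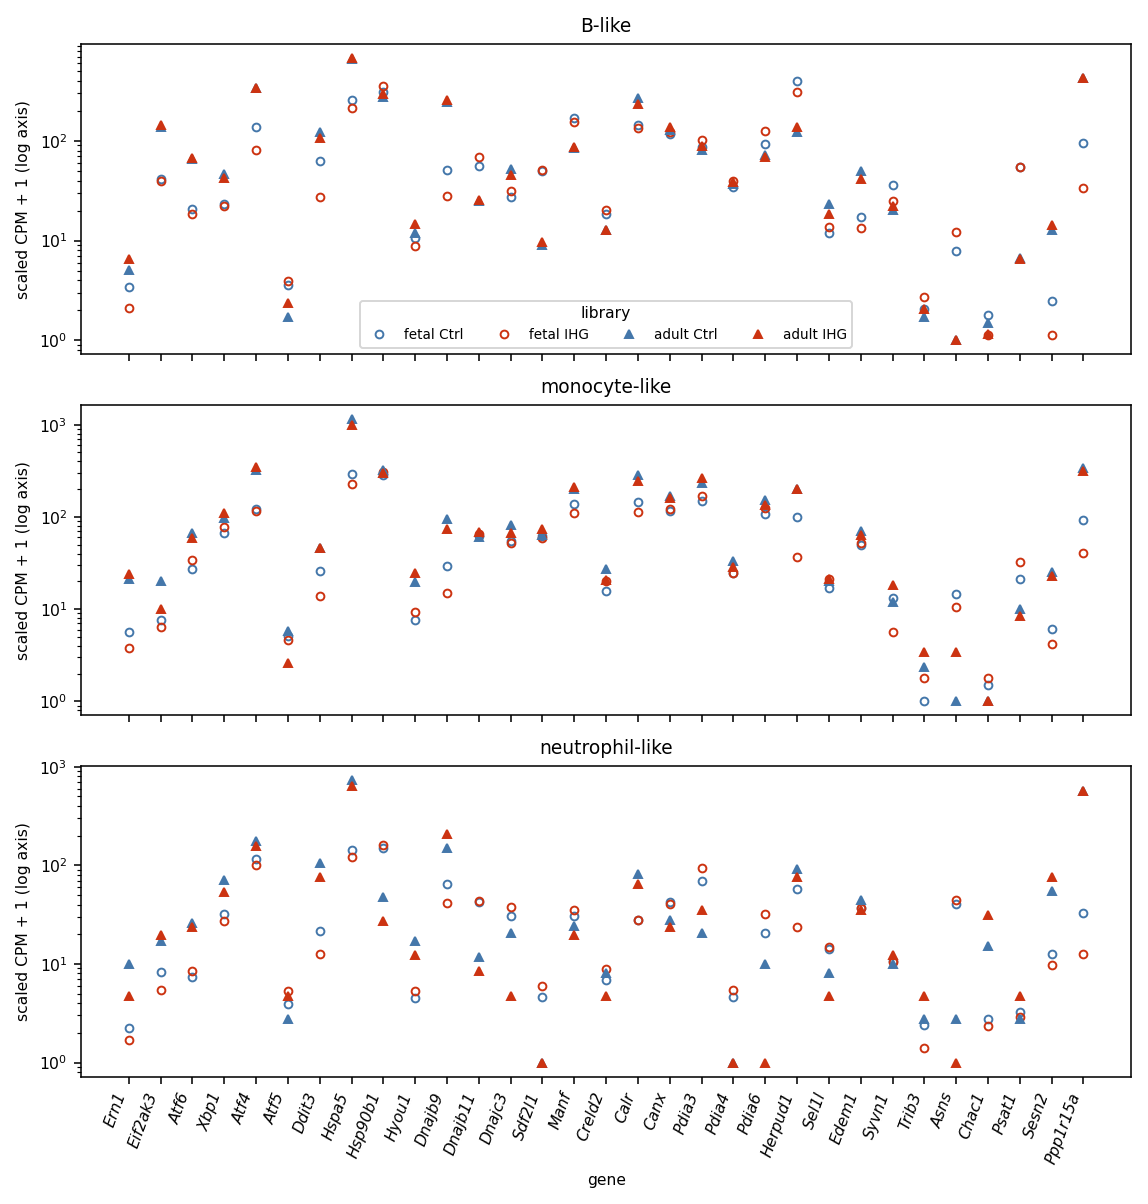
Scaled CPM plus 1 on a log axis (vertical) of the 31 genes (horizontal) in B-like, monocyte-like and neutrophil-like cells of the 4 libraries, open circles for fetal and filled triangles for adult, blue for Ctrl and red for IHG, 1 library each. Ppp1r15a in neutrophil-like cells lies at 31.6 and 11.7 in the fetal and 562 and 564 in the adult libraries, while Herpud1 in B-like cells lies at 402 and 308 in the fetal and 123 and 137 in the adult.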

How the data were processed

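The deposited tables hold UMI counts per gene and cell barcode, which the file headers trace to Cell Ranger 5.0.0. The submitters' processing notes also name mm10 and Seurat. Here, in Python 3.11.15 with scanpy 1.11.5 (leidenalg 0.10.2, scikit-learn 1.9.0, scipy 1.17.1, numpy 2.4.6, matplotlib 3.10.9, pandas 2.3.3), cells under 300 genes or above 25% mitochondrial UMIs were dropped. Scrublet calls were removed (147, 284 and 150 cells at its own threshold). In the adult IHG library that threshold marked 0.0884% of cells, so 286 cells, those scoring above percentile 95, were removed instead. Clusters (2000 variable genes, 30 components, 15 neighbours, resolution 1) were named from markers of 19 classes. Of the 31 genes and the pathway genes, those that are no markers were kept out of the variable genes. Counts were summed per class and library. Intervals are exact conditional Poisson intervals, and no test was possible with 1 library per group. Total UMIs were 77874423 and 105382968 (fetal Ctrl and IHG) and 17987173 and 19366065 (adult). Ddit3 was summed over 2 gene IDs. Named genes were the members and, per class, up to 3 other pathway genes higher and 3 lower by largest ratio. Members and lists were chosen with earlier results of these data known. The alternatives included edgeR 4.0.16 TMM factors. The step that gives ratios, intervals and calls was tested on simulated Poisson class sums, which hold counting error only. Filtering, doublet removal, clustering, naming, thinning and the scaling between ages were not tested this way. Protein sequences were not used here.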

Additional observations from a re-analysis of the deposited data

Results flagged for a closer look

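The fetal calls of 9 gene and class pairs stood apart because the adult libraries lay on the other side of 0 in the same cell class. With 1 library per group the difference between ages was not tested, and perfusion, depth and makeup cannot be told apart from age. In B-like cells Ern1 had a ratio of -1.10 in fetal and of 0.41 in adult cells, a difference of 1.51 on the log2 scale. Dnajb9 stood at -0.92 and 0.06 (difference 0.985) and Sesn2 at -3.07 and 0.17 (3.24), the last from 1 UMI in fetal IHG. In monocyte-like cells Ddit3 stood at -0.96 and 0.00 (0.959), Herpud1 at -1.45 and 0.01 (1.45), and Syvn1 at -1.40 and 0.62 (2.02). Psat1 went the other way there, from 0.63 to -0.27 (-0.896). In neutrophil-like cells Dnajb9 stood at -0.72 and 0.49 (1.21) and Ppp1r15a at -1.49 and 0.02 (1.52). Several of the adult values lie close to 0, so their side of it carries little weight.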

How the results depend on the processing

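No paired analysis was possible because each group is 1 library. Of 585 readings of 56 called gene values under the alternatives, 481 kept direction and call, 97 kept direction and lost the call, and 7 reversed. The alternatives differed in this. At equal depth, in cells thinned to 1000 UMIs, 12 of the 56 kept the call, 13 lost it and 5 reversed. The rest of the 56 gave no reading there. In cells thinned to 1000 UMIs the reversed values were 0.21 for Manf, 0.0252 for Pdia3 and 0.76 for Pdia6 in endothelial-like cells, 0.69 for Sdf2l1 in mast/basophil-like cells and -0.0422 for Pdia6 in myeloid progenitor-like cells. On CPM alone they were 0.0680 for Manf and 0.0794 for Ppp1r15a in erythroid-like cells. The counts of members called that moved by more than 1.5 times were as follows. On CPM alone the count higher became 2 in fetal B-like, 2 in endothelial-like, 11 in erythroid-like, 7 in hepatocyte-like, 1 in mast/basophil-like, 10 in myeloid progenitor-like and 2 in neutrophil-like cells, and the count lower became 3 in endothelial-like, 1 in erythroid-like, 0 in myeloid progenitor-like, 3 in neutrophil-like and 0 in adult monocyte-like cells. With a 2-fold threshold the count higher became 0 in B-like, monocyte-like, myeloid progenitor-like and neutrophil-like and 1 in hepatocyte-like cells, and the count lower became 2 in endothelial-like, erythroid-like and neutrophil-like, 3 in monocyte-like, and 0 in myeloid progenitor-like and adult cholangiocyte-like cells. In thinned cells the count higher became 0 in B-like, endothelial-like and neutrophil-like and 1 in erythroid-like, myeloid progenitor-like and adult NK/innate lymphoid-like cells, and the count lower became 2 in endothelial-like and erythroid-like, 0 in hepatocyte-like, 4 in mast/basophil-like, 1 in monocyte-like and 3 in neutrophil-like cells. Neutrophil-like cells were then lowest for 7 (Ctrl) and 9 (IHG) genes. Fewer UMIs, and so fewer measured genes, remain in thinned cells. With doublets kept the count higher became 0 in B-like, monocyte-like and neutrophil-like cells, and the count lower 3 in myeloid progenitor-like, 0 in adult monocyte-like and 2 in adult neutrophil-like cells. With genes of at least 1 UMI, endothelial-like cells had 2 higher and 3 lower, myeloid progenitor-like cells 6 higher and adult neutrophil-like cells 1 higher. Without haemoglobin-rich cells, hepatocyte-like cells had 1 higher and 1 lower, mast/basophil-like cells 1 higher, monocyte-like cells 2 higher and myeloid progenitor-like cells 5 higher. At resolution 0.5, B-like cells had 0 and myeloid progenitor-like cells 4 higher, and with TMM factors the latter also had 4. With a mitochondrial maximum of 10% hepatocyte-like cells had 1 higher, without the 1 cell per library with the most member UMIs they had 1 lower, and with at least 500 genes per cell adult monocyte-like cells had 0 lower. Apart from the scaling, the threshold and the thinning, whose construction sets them, the cause of these moves was not tested. Depth limits the adult neutrophil-like cells, with 14 members measured, and genes such as Ern1, Sesn2 and Chac1, which rest on few UMIs.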
